A study of Mus musculus with 8 samples.

Results

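The comparison set the array labelled RUNX1S291fs/Ezh2Δ/Δ (called Double_mutant here) against the array labelled Ezh2Δ/Δ (called Ezh2_deleted), and so addressed what the RUNX1S291fs transgene adds in blood stem and progenitor cells that have already lost Ezh2. Both arrays, 2 of the 8 in the series, came from month 4 after transplantation. Of 20639 genes with a named probe, 13954 stood well above background on 1 of both arrays or more and form the basis of all that follows: 12662 on both, 719 on Double_mutant only and 573 on Ezh2_deleted only.

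The cells were CD45.2 LSK cells (lineage-negative, c-Kit-positive and Sca-1-positive, the bone marrow fraction that holds the blood stem cells and the earliest multipotent progenitors) of C57BL/6 origin, sorted from irradiated recipients that also received CD45.1 wild-type marrow. Ezh2_deleted cells carried Cre-ERT, a deleted floxed Ezh2 and the empty control retrovirus, and Double_mutant cells carried Cre-ERT, the same deletion and the retrovirus with RUNX1S291fs. Cre-ERT and the loss of Ezh2 were thus common to both, and the donor cells of each array were pooled from 2 to 4 mice. The other arrays were WT (Cre-ERT, Ezh2 intact, empty retrovirus), RUNX1_mutant (Cre-ERT, Ezh2 intact, RUNX1S291fs), CD45.1_in_RUNX1_mutant and CD45.1_in_double_mutant (wild-type competitor cells from recipients of the named donor cells), all at month 4, and Double_MDS and Double_MDS_ML, each from a single moribund mouse with both lesions and labelled MDS and MDS/myeloid leukemia. Each group had 1 array, so no difference between groups has a replicate check.

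RUNX1 is a transcription factor that binds DNA through its Runt domain together with the partner CBF-beta and is needed for the development of lymphoid cells and megakaryocytes from blood stem cells. RUNX1S291fs is a frameshift form that keeps the DNA-binding domain and loses the C-terminal part of the protein, a kind of mutation found in myelodysplastic syndromes (MDS). EZH2 is the main histone H3 methyltransferase of Polycomb repressive complex PRC2, which keeps developmental and cell cycle inhibitor genes silent, and it too is lost in some patients with MDS.

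Levels below are log2 signals relative to the 75th percentile of the array, and differences are Double_mutant minus Ezh2_deleted in log2, so that 1 stands for 2-fold. Levels are read from 1 probe per gene and are set against each other only for the same gene. Where a probe was not well above background on 1 of both arrays, it entered there at the higher of its own value and the lowest level that passed as well above background on that array, and the fold is given as "at least".

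The targeted genes were at similar levels on both arrays. Ezh2 stood at 3.42 on Double_mutant and 3.51 on Ezh2_deleted, against 3.46 on WT, 3.40 on RUNX1_mutant, 3.29 on the Double_MDS and 3.10 on the Double_MDS_ML array, and 4.01 (CD45.1_in_RUNX1_mutant) and 3.84 (CD45.1_in_double_mutant) in wild-type competitors. The sources used here do not give where this probe lies, and it checks the deletion only if it lies within the removed exons. Runx1 stood at 3.46 and 3.38, within the wild-type range of 3.04 to 3.55, and was higher on RUNX1_mutant (4.41), Double_MDS (5.31) and Double_MDS_ML (4.65). Whether its probe reads the retroviral transcript is not given either. The sort markers Kit (4.45 and 4.23) and Ly6a, which encodes Sca-1 (3.17 and 3.40), differed by 0.21 and -0.23, and Ptprc, which encodes CD45, by -0.83.

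The arrays lay on different slides and held cells of different sex, and both facts go with the comparison. Xist, an RNA made from the inactive X chromosome, stood at 1.1 on Double_mutant and was not well above background on Ezh2_deleted, and the Y-linked Eif2s3y (2.71) and Ddx3y (1.74) were seen on Ezh2_deleted and not on Double_mutant. RUNX1S291fs, slide and sex therefore cannot be told apart in this pair. WT, Double_mutant and Double_MDS shared slide 1, Double_MDS_ML lay on slide 3, and Ezh2_deleted, RUNX1_mutant and both CD45.1 arrays shared slide 2. A value with slide as a block is the Double_mutant minus WT difference less the Ezh2_deleted minus mean CD45.1 difference. WT held donor cells with Cre-ERT and the empty retrovirus, and the CD45.1 arrays held competitor cells from recipients of mutant cells. In this value slide cannot be told apart from those differences. It is given for list medians that it shifts by over 1.5-fold and for named genes that it takes across 2-fold. It shifted 133 of 216 genes chosen for naming by over 1.5-fold and turned the sign of 5 more that were at least 2-fold apart. Smaller differences that changed sign were not counted as such, among them those of Ezh2 (-0.09 to 0.38) and Ly6a (-0.23 to 0.05). Of those CD45.1 arrays, CD45.1_in_RUNX1_mutant was the dimmest of the 8 (43.9% of probes well above background, against 50.7% on Ezh2_deleted and 52.2% on Double_mutant).

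Among the 13954 genes, 1538 had a level higher by 2-fold or more on Double_mutant (11.0%) and 1542 a lower one (11.1%), and 163 and 219 were at least 8-fold apart. The median over all genes was 0.16, with quartiles of -0.35 and 0.57. The 22.1% of genes at least 2-fold apart compares with 7.24% between CD45.1_in_double_mutant and WT, 18.3% between CD45.1_in_RUNX1_mutant and WT and 16.6% between both CD45.1 arrays, all pairs of wild-type cells. With slide as a block 2778 genes were higher and 1721 lower, which moved the share of higher genes from 49.9% to 61.7%. Of the 1538 genes 1309, and of the 1542 genes 1166, stayed at least 2-fold apart in the same direction. With CD45.1_in_double_mutant as the only wild-type array of slide 2, 2030 genes were higher and 1548 lower, a share of 56.7%. For 896 of the 3080 genes apart (29.1%) only Double_mutant lay outside the range of the 3 wild-type arrays. For 675 (21.9%) only Ezh2_deleted did, for 1359 (44.1%) both did and for 150 (4.87%) neither did. Over all 13954 genes these shares were 20.7%, 20.6%, 29.1% and 29.6%, in the same order.

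**Figure D1:**
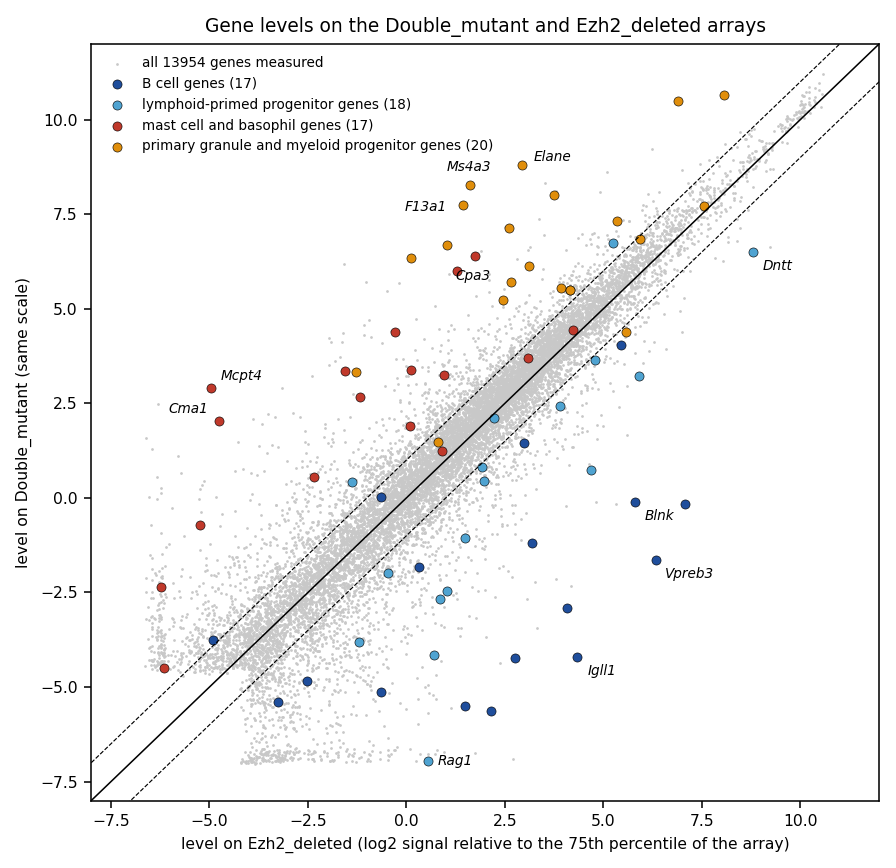
Level of each of the 13954 genes on Ezh2_deleted (x axis) and Double_mutant (y axis), both in log2 relative to the 75th percentile of the array, with 4 gene lists in colour. The solid line marks equal levels and the dashed lines 2-fold, and dim values are drawn as measured. Igll1 (4.34 and -4.21) and Mcpt4 (-4.97 and 2.91) lie far to either side of the line.

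Genes of the B cell lineage gave the lowest values of the comparison. Igll1, a part of the surrogate light chain of the pre-B cell receptor, stood at 4.34 on Ezh2_deleted and -4.21 on Double_mutant, a 376-fold difference, and at -2.39 on WT, -6.07 on RUNX1_mutant, -5.83 on the Double_MDS and -5.43 on the Double_MDS_ML array, and -3.55 (CD45.1_in_RUNX1_mutant) and 1.09 (CD45.1_in_double_mutant) in wild-type competitors. Vpreb1, which encodes the other part of that chain, stood at 7.06 and -0.17, and at 1.22, -1.18, -0.75, -1.28, 1.27 and 3.87 on the other arrays in the same order. For both genes Ezh2_deleted was the highest of the 8 arrays. Vpreb1 was lower on Double_mutant than on all 3 wild-type arrays, as it was on the other carriers of RUNX1S291fs. Igll1 was well above background on 4 arrays (WT, Ezh2_deleted, Double_mutant and CD45.1_in_double_mutant), so its other levels have no order.

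Of 20 listed B cell genes, 17 were measured, 15 of them at least 2-fold lower and 0 higher, with a median of -4.37 beside 0.16 over all genes (-3.90 with slide as a block, -2.42 with CD45.1_in_double_mutant as the only wild-type array of slide 2). Vpreb3 differed by -7.98, Pou2af1, a co-activator of B cell transcription, by -7.01, Vpreb2 by -6.98 and Blnk, an adaptor of the B cell receptor, by -5.92. Ebf1, a transcription factor that commits progenitors to the B lineage, was at least 73.8-fold lower. The mean level of the 17 genes was 2.00 on Ezh2_deleted, -2.42 on Double_mutant, -2.62 on RUNX1_mutant and -1.82 on WT. It was -1.76 on CD45.1_in_RUNX1_mutant and 0.27 on CD45.1_in_double_mutant. Relative to WT and CD45.1_in_RUNX1_mutant, most of the distance lay on the side of Ezh2_deleted. Relative to CD45.1_in_double_mutant, most of it lay on the side of Double_mutant. WT shared its slide with Double_mutant, and both CD45.1 arrays shared theirs with Ezh2_deleted. In bulk samples, fewer cells of a type and less RNA per cell cannot be told apart.

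Genes that mark lymphoid-primed progenitors, the step before commitment, were lower in 14 of 18 and higher in 3, with a median of -1.92 (-2.64 with slide as a block). Rag1, the recombinase that cuts antigen receptor genes, stood at 0.55 on Ezh2_deleted and was not well above background on Double_mutant, at least 38.6-fold lower. It was well above background on 3 of the 8 arrays. Il7r, the IL-7 receptor chain that early lymphoid cells depend on, stood at 0.85 and -2.68, against -0.04 on WT, -3.63 on RUNX1_mutant, -6.95 on the Double_MDS and -3.42 on the Double_MDS_ML array, and -1.18 (CD45.1_in_RUNX1_mutant) and 0.03 (CD45.1_in_double_mutant) in wild-type competitors. Every array with RUNX1S291fs lay below every array without it, the Double_MDS value not being well above background.

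Flt3, the growth factor receptor of multipotent and lymphoid progenitors, went from 5.90 on Ezh2_deleted to 3.23 on Double_mutant, with the wild-type arrays at 4.86 to 5.75. Lck, a T cell kinase, stood at 4.69 and 0.74 (wild-type arrays 3.83 to 4.41, RUNX1_mutant 1.60), and the homing receptors Ccr7 and Ccr9 differed by -4.87 and -3.51. In contrast to the B cell genes, Flt3 and Lck were close to their wild-type levels on Ezh2_deleted. Among the 3 members that were higher were Irf8 (1.33), a factor of monocyte and dendritic cell development, and Notch1 (1.80), whose visible probes disagreed in sign (-3.18 to 1.80). T and NK cell genes were lower in 18 of 22 and higher in 0, with a median of -1.53. Zap70, a kinase of T cell receptor signalling, differed by -4.13, the co-stimulatory receptor Cd28 by -3.70 and the granzyme gene Gzma by -3.42, and Cd2, an adhesion receptor, was at least 12.8-fold lower.

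Among the Id and E proteins, which antagonise and drive lymphoid transcription, Id3 stood apart. It stood at 3.81 on Ezh2_deleted and -2.14 on Double_mutant, a 61.9-fold difference, and at -1.62 on WT, 3.63 on RUNX1_mutant, 1.90 on the Double_MDS and -3.47 on the Double_MDS_ML array, and -0.44 (CD45.1_in_RUNX1_mutant) and 2.20 (CD45.1_in_double_mutant) in wild-type competitors. Its level thus followed neither lesion, and it was 5.26 higher on RUNX1_mutant than on WT. The E protein genes Tcf4 (-1.21), Tcf3 (-0.82) and Tcf12 (0.48) differed by less. The inhibitor genes Id1 (0.46) and Id2 (1.00) did too, but with slide as a block they differed by 3.41 and 1.71.

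Mast cell and basophil genes were the list with the highest median, 3.27 (3.89 with slide as a block), 13 of 17 measured members being at least 2-fold higher and 0 lower. Mcpt4, a chymase of mast cell granules, stood at 2.91 on Double_mutant and 2.65 on RUNX1_mutant, against -7.13 on WT, -4.97 on Ezh2_deleted, -3.92 on the Double_MDS and -6.27 on the Double_MDS_ML array, and -1.11 (CD45.1_in_RUNX1_mutant) and -2.48 (CD45.1_in_double_mutant) in wild-type competitors. It was at least 164.5-fold higher on Double_mutant than on Ezh2_deleted. Cpa3, the carboxypeptidase of mast cell granules, stood at 6.39 and 1.74, a difference of 4.65, and at 1.45 on WT, 6.75 on RUNX1_mutant, 8.47 on Double_MDS, 6.85 on Double_MDS_ML, and 2.23 and 2.24 on the CD45.1 arrays. For Cpa3 the 4 arrays with RUNX1S291fs all lay above the 4 without it, whereas Mcpt4 was high on RUNX1_mutant and Double_mutant and was not well above background on WT, Ezh2_deleted and Double_MDS_ML.

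The chymase gene Cma1 was at least 90.1-fold higher, the tryptase gene Tpsb2 30.1-fold, Hdc, which makes histamine, 26.5-fold and the basophil protease gene Prss34 25.3-fold. Fcer1a, the alpha chain of the IgE receptor, stood at 3.39 and 0.12. Other listed members differed by less, Kit by 0.21, Gata2, a factor of stem, mast and megakaryocyte cells, by 0.63 and Mitf, a mast cell factor, by 1.81. Among the IL-1 receptor family genes, which lie next to each other on a chromosome, Il1rl1, the IL-33 receptor of mast cells, stood at 3.63 on Double_mutant and -1.81 on Ezh2_deleted, a 43.5-fold difference. Il18r1, the IL-18 receptor, went the other way, with -3.18 and 1.76, and Il1r2, a decoy receptor for IL-1, differed by -4.20, Il18rap by -1.81 and Il1r1 by -1.51.

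The promoters of 6 of these genes are shown because they are among the mast cell and lymphoid genes above whose window holds TGTGGT or TGCGGT, letters that the Runt domain is known to bind, on either strand (ACCACA or ACCGCA). Each window runs from 250 bases before to 50 bases after the annotated start in RefSeq on GRCm38.p6, is read in the direction of the gene, all 6 lying on the minus strand, and has the matches in capitals. They are Cpa3 (chr3:20242132-20242431), Mcpt4 (chr14:56062261-56062560), Rag1 (chr2:101649483-101649782), Lck (chr4:129573592-129573891), Il7r (chr15:9529827-9530126) and Igll1 (chr16:16863936-16864235).
Cpa3: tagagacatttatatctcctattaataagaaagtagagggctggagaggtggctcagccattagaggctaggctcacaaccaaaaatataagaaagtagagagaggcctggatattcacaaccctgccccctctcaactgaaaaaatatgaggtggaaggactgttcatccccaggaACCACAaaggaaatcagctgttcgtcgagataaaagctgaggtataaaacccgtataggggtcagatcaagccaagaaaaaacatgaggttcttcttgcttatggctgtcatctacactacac
Mcpt4: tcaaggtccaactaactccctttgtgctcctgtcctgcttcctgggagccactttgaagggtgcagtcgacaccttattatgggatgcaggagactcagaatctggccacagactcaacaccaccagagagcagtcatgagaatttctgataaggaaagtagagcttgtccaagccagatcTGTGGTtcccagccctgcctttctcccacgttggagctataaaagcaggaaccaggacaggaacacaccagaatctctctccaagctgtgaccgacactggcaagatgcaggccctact
Rag1: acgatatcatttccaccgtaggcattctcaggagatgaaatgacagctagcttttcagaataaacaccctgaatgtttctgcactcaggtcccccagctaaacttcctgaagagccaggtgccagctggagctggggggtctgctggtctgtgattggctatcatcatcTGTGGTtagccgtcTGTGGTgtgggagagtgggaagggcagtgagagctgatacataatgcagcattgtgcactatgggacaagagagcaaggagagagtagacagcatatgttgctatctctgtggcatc
Lck: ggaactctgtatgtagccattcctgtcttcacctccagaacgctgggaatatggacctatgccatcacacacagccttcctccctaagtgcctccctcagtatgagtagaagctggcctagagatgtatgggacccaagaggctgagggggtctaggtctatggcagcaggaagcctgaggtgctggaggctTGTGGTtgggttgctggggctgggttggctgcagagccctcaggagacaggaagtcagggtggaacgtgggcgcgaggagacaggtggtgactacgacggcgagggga
Il7r: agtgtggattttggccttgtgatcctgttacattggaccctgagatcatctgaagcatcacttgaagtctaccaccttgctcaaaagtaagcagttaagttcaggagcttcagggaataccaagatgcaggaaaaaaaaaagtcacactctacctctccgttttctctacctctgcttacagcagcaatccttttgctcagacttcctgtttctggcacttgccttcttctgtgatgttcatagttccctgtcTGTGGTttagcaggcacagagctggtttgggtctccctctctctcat
Igll1: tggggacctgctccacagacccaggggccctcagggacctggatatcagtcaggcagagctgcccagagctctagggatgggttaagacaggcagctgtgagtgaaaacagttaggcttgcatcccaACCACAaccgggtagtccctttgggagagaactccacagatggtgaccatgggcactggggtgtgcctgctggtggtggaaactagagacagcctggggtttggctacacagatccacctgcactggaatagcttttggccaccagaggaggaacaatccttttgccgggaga

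Rag1 has 2 such matches and the 5 others 1 each. The letters occur in 22.5% of the 27025 first-listed promoters of the table and in 21.3% of the 11168 measured genes with a promoter there. The share was 23.2% for the genes higher by 2-fold or more, 21.3% for those lower by as much, and 27.9% each for genes higher and genes lower in both RUNX1S291fs pairs. Of the mast cell and basophil genes 9 of 14 with a promoter held a match, of T and NK cell genes 8 of 17, of lymphoid-primed genes 5 of 14 and of B cell genes 3 of 14. Late neutrophil genes held a match in 8 of 18 and erythroid genes, with a median difference of 0.17, in 6 of 14. Primary granule genes, with a median difference of 3.04, held one in 3 of 16 and megakaryocyte genes in 1 of 16. A match is a description of the letters in the window and shows no binding.

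Genes of primary granules and myeloid progenitors were higher in 16 of 20 and lower in 1, with a median of 3.04 (3.97 with slide as a block). Elane, the neutrophil elastase gene, stood at 8.81 on Double_mutant and 2.93 on Ezh2_deleted, a 58.8-fold difference, against 2.82 on WT, 4.43 on RUNX1_mutant, 3.32 on the Double_MDS and 1.14 on the Double_MDS_ML array, and 7.30 (CD45.1_in_RUNX1_mutant) and 4.79 (CD45.1_in_double_mutant) in wild-type competitors. Ms4a3, a membrane protein of granulocyte and monocyte progenitors, stood at 8.28 and 1.61, a 102-fold difference, and at 2.82, 4.85, 2.92, 2.45, 7.53 and 4.87 on the other arrays in the same order. For both genes Double_mutant was the highest of the 8 arrays, Ezh2_deleted was close to WT for Elane and below it for Ms4a3, and the next highest array was a wild-type array, CD45.1_in_RUNX1_mutant.

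F13a1, a transglutaminase of monocytes and platelets, was 79.2-fold higher, Igsf6, a receptor of myeloid cells, 74.2-fold, Cebpe, which drives the late steps of granulocyte maturation, 50.3-fold, and Prtn3, the proteinase 3 gene, 19.2-fold. The mean level of the list was 6.67 on Double_mutant and 3.43 on Ezh2_deleted, against 3.75 on WT, 4.41 on RUNX1_mutant, 6.05 and 4.68 on the CD45.1 arrays, and 3.47 and 2.48 on Double_MDS and Double_MDS_ML. Relative to WT and CD45.1_in_double_mutant, most of the distance lay on the side of Double_mutant. Relative to CD45.1_in_RUNX1_mutant, most of it lay on the side of Ezh2_deleted. Among regulators and receptors, Gfi1, a repressor needed for neutrophil production, stood at 5.72 and 2.65 and Csf1r, the receptor for macrophage growth factor, at 6.12 and 3.11. The visible probes of Csf1r gave differences from 0.23 to 3.02. Cebpa (0.70, and 1.62 with slide as a block) and the G-CSF receptor Csf3r (0.16) differed by less than 2-fold. Nkg7, a granule protein gene, was the member that was lower (-1.18, and -0.40 with slide as a block).

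Late neutrophil granule genes were higher in 13 of 20 and lower in 1 (median 1.83, or 3.04 with slide as a block). The median was 1.52 with CD45.1_in_double_mutant as the only wild-type array of slide 2. S100a8, a calcium-binding protein abundant in neutrophils, stood at 9.23 on Double_mutant, 6.24 on Ezh2_deleted, 2.53 on WT and 4.47 on RUNX1_mutant, and Lcn2, an iron-sequestering granule protein, at 6.54, 3.08, -0.34 and 2.34. On CD45.1_in_RUNX1_mutant and CD45.1_in_double_mutant S100a8 stood at 5.72 and 1.23 and Lcn2 at 3.76 and 1.98. Double_mutant thus lay above all 3 wild-type arrays for both genes, and Ezh2_deleted for S100a8 but not for Lcn2. Wfdc21 was 24.4-fold higher, while Ngp (-0.30), Camp (0.46) and Ltf (0.89, and 1.97 with slide as a block), of secondary granules, differed by less than 2-fold. The member that was lower was Il1r2. Monocyte and macrophage genes were higher in 9 of 18 and lower in 2 (median 0.95, and 1.56 with slide as a block), with Ccr2, a chemokine receptor of monocytes, at 4.05, the lipopolysaccharide co-receptor Cd14 at 3.43 and Adgre1, a macrophage marker, at least 18.1-fold higher. Itgax, an integrin of dendritic cells, was lower (-2.89).

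**Figure D2:**
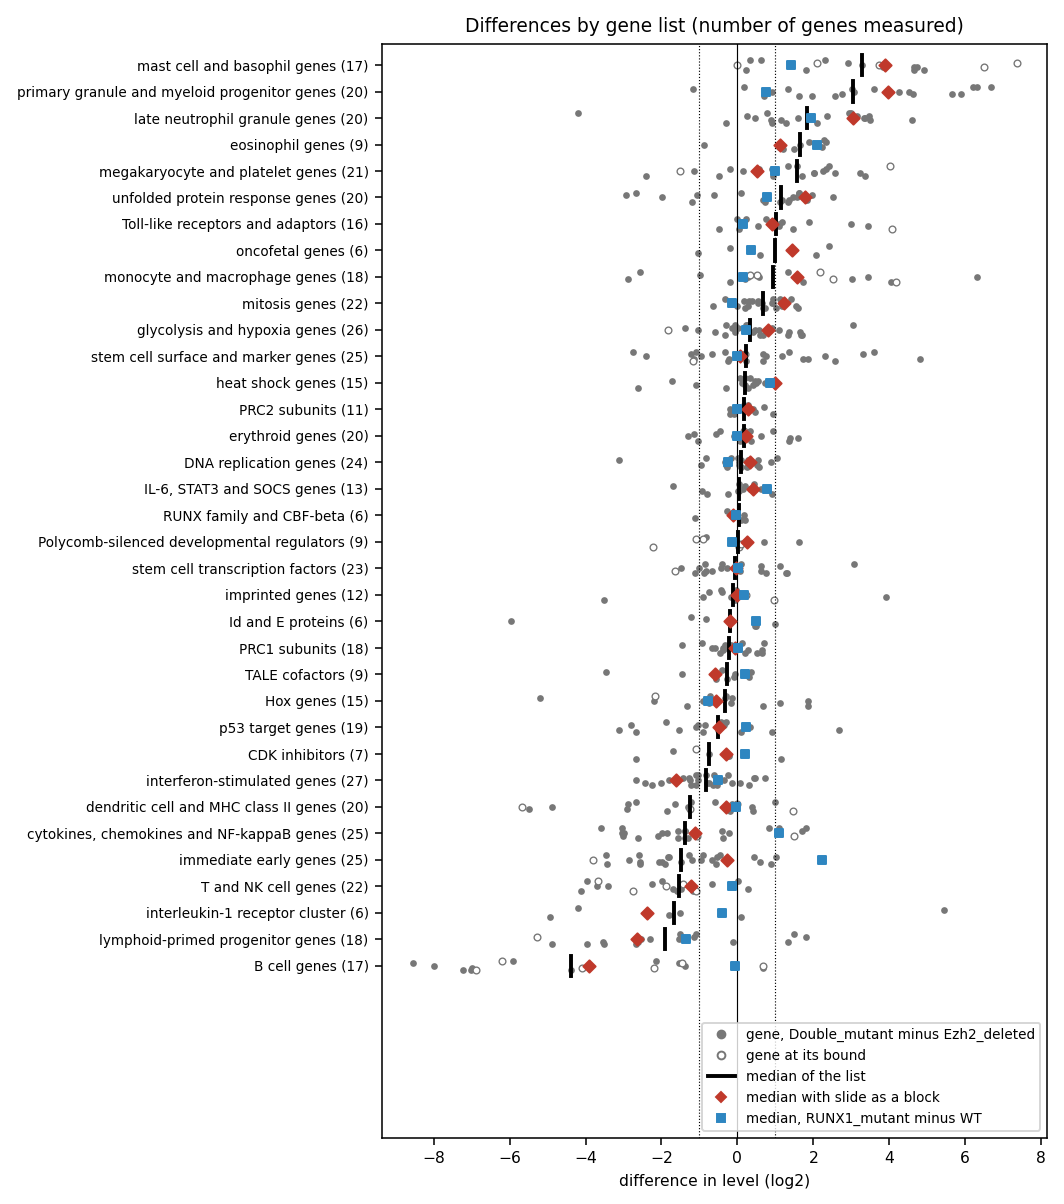
Difference in level between Double_mutant and Ezh2_deleted (x axis, log2) for each measured member of the gene lists other than the targeted genes and the sex markers, with the median of each list, its median with slide as a block and the median of RUNX1_mutant minus WT. Mast cell (3.27) and primary granule genes (3.04) lie at the upper end and B cell genes (-4.37) at the lower end, and the median of immediate early genes is -1.50, or -0.27 with slide as a block.

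Eosinophil genes were higher in 8 of 9 and lower in 0, among them the ribonuclease genes Ear1 (2.33) and Ear2 (2.28) and the receptor gene Il5ra (2.23), with a median of 1.64. With CD45.1_in_double_mutant as the only wild-type array of slide 2 that median was -0.12, and the mean level of the list was -1.93 there and -0.11 on CD45.1_in_RUNX1_mutant. Megakaryocyte and platelet genes were higher in 12 of 21 and lower in 3 (median 1.56, and 0.52 with slide as a block). Their median was 1.25 with CD45.1_in_double_mutant as the only wild-type array of slide 2. Clec1b, an activating platelet receptor, was at least 16.1-fold higher, Treml1, a protein of platelet granules, 10.3-fold, Ppbp, a platelet chemokine, 9.36-fold and Vwf, the von Willebrand factor gene, 5.96-fold, while Mmrn1, a platelet granule protein, was lower (-2.41). Pf4, another platelet chemokine, differed by 1.70, and by 0.04 with slide as a block. Erythroid genes were higher in 3 of 20 and lower in 3 (median 0.17).

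Toll-like receptors and their adaptors were higher in 8 of 16 and lower in 0 (median 1.00). Tlr4, the lipopolysaccharide receptor, stood at 0.84 on Double_mutant and -2.15 on Ezh2_deleted, above and below the wild-type range of -1.50 to -1.13, and Tlr1 was at least 16.8-fold higher. The adaptor genes Myd88 (1.17) and Irak4 (1.08) passed 2-fold as well. Dendritic cell and MHC class II genes were lower in 11 of 20 and higher in 1 (median -1.24, and -0.29 with slide as a block). Xcr1, a chemokine receptor of cross-presenting dendritic cells, was well above background on Ezh2_deleted alone of the 8 arrays, at least 51.4-fold lower on Double_mutant. Cd83, a surface protein that mature dendritic cells carry, stood at 3.27 on Ezh2_deleted and -2.23 on Double_mutant, and the class II gene H2-Aa differed by -2.90.

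**Figure D3:**
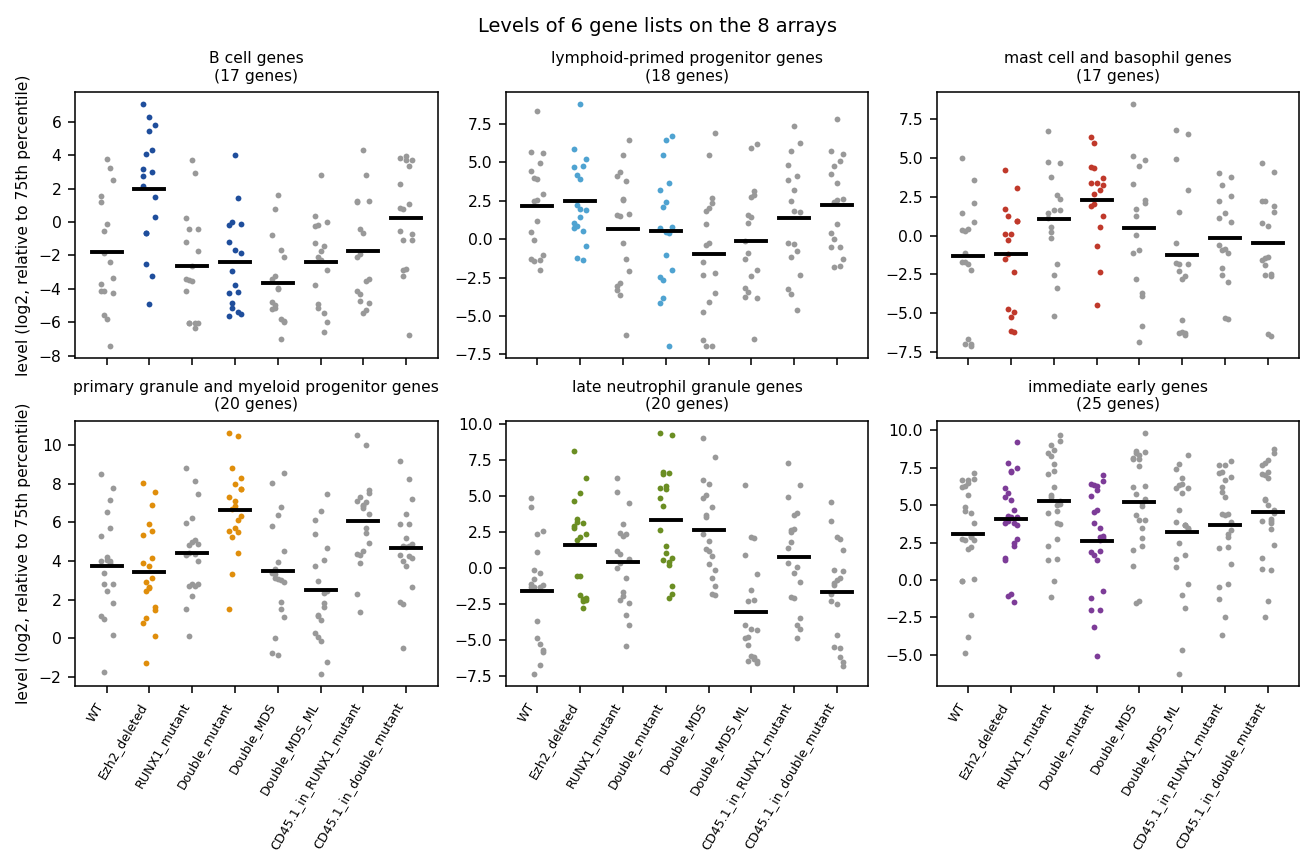
Level on each of the 8 arrays (log2, relative to the 75th percentile of the array) of the measured members of 6 gene lists, with bars at the list mean, dim values as measured and both arrays of the comparison in colour. B cell genes are high on Ezh2_deleted (mean 2.00) and primary granule genes on Double_mutant (mean 6.67).

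Immediate early genes, which are transcribed within minutes of a signal, were lower in 15 of 25 and higher in 1, with a median of -1.50. Atf3, a stress-induced transcription factor, stood at 1.34 on Double_mutant and 4.19 on Ezh2_deleted, against 2.09 on WT, 6.25 on RUNX1_mutant, 4.01 on the Double_MDS and -1.0 on the Double_MDS_ML array, and 4.32 (CD45.1_in_RUNX1_mutant) and 5.0 (CD45.1_in_double_mutant) in wild-type competitors. Every array of slide 2, Ezh2_deleted included, thus lay above every array of slides 1 and 3. Double_MDS, on the slide of Double_mutant, came close to Ezh2_deleted. With slide as a block the difference of Atf3 was -0.27 and the median of the list -0.27, or 0.11 with CD45.1_in_double_mutant alone. The part of slide in these genes was not tested. Fosl1 was at least 14.1-fold lower, and Maff (-3.45), Ier5 (-3.44) and the nuclear receptor gene Nr4a1 (-2.58) were lower, while Fos (0.88, and 1.29 with slide as a block) and Jun (-0.47) differed by less than 2-fold and Myc (1.00, and 0.65 with slide as a block) was the member that was higher.

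Cytokine, chemokine and NF-kappaB genes were lower in 17 of 25 and higher in 4, with a median of -1.38 (-1.12 with slide as a block). Tnf, the tumour necrosis factor gene, stood at -1.60 on Double_mutant and 1.99 on Ezh2_deleted, with the wild-type arrays at -0.05 to 1.47, and Nfkbia, the NF-kappaB inhibitor, at 4.39 and 7.01, with the wild-type arrays at 5.02 to 5.86. In both cases Double_mutant lay below the wild-type range and Ezh2_deleted above it. Relb, a subunit of NF-kappaB, differed by -3.04, Ptgs2, the inducible cyclooxygenase, by -3.03 and the adhesion molecule Icam1 by -3.02. The 4 that were higher were Ccl2 (1.81), Ccl6 (1.69), Ccl9 (1.09) and Il6, at least 2.82-fold, though its difference was 0.51 with slide as a block. IL-6 and STAT3 pathway genes were lower in 1 of 13 (Cish, -1.69) and higher in 0. Interferon-stimulated genes were lower in 13 of 27 and higher in 0 (median -0.84, and -1.62 with slide as a block), led by Rtp4 (-2.67), the antiviral Oas2 (-2.43) and Irf7 (-2.25), which amplifies interferon production.

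Genes of the unfolded protein response differed in both directions. Of 20 measured, 11 were higher and 5 lower (median 1.15, and 1.79 with slide as a block). The chaperones and folding enzymes of the endoplasmic reticulum were among the higher ones, with Sdf2l1 at 2.50, Calr at 1.98, Hsp90b1 at 1.83 and Pdia4 at 1.63. Those lower were the stress-induced Trib3 (-2.95), Chac1 (-2.68), Ddit3 (-1.98), Dnajb9 (-1.18) and Atf4 (-1.06), and with slide as a block Dnajb9 differed by -0.71 and Atf4 by 0.17. Heat shock genes were lower in 3 of 15 and higher in 0 (median 0.20, and 1.00 with slide as a block), and the differences of Hspa1a (-2.61) and Hspb1 (-1.72) turned to 3.27 and 2.25 with slide as a block.

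Of the CDK inhibitors, brakes of the cell cycle, 3 of 7 were lower and 1 higher. Cdkn2a, a locus that Polycomb complexes silence, stood at -0.92 on Double_mutant and 0.77 on Ezh2_deleted, and at -6.15 on WT, -6.19 on RUNX1_mutant, 1.92 on the Double_MDS and 2.41 on the Double_MDS_ML array, and -5.60 (CD45.1_in_RUNX1_mutant) and -3.0 (CD45.1_in_double_mutant) in wild-type competitors. It was not well above background on WT, RUNX1_mutant and CD45.1_in_RUNX1_mutant, all 4 arrays with the Ezh2 deletion lay above all 4 without it, and the difference within the pair, -1.69, was 0.16 with slide as a block. Cdkn1a (-2.67) was lower too, Cdkn2b at least 2.15-fold lower and Cdkn2c (1.15) higher, and Cdkn1c (-0.74), Cdkn2d (-0.28) and Cdkn1b (-0.22) differed by less. With slide as a block Cdkn1a differed by -1.26, Cdkn2b by -0.30, Cdkn2c by 0.71 and Cdkn1c by -1.32. The p53 targets, which include Cdkn1a, were lower in 7 of 19, led by Phlda3 (-3.11) and the cell death gene Bbc3 (-2.81), and higher in 1, the death receptor Fas (2.68).

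Mitosis genes were higher in 6 of 22 and lower in 0 (median 0.67), among them the kinases Aurkb (1.61, and 0.36 with slide as a block), Plk1 (1.54) and Aurka (1.11). DNA replication genes were higher in 1 of 24 and lower in 1 (median 0.09). Glycolysis and hypoxia genes were higher in 7 of 26 and lower in 3 (median 0.33), with Fbp1 (3.04), an enzyme of glucose synthesis, Pfkp (1.69), Pgam1 (1.67) and Eno1 (1.64) higher. Another probe of Pfkp gave 0.45.

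The Polycomb complexes themselves differed little. Of 11 PRC2 subunit genes 0 passed 2-fold in either direction (median 0.18, Jarid2 the largest at 0.93, and 1.12 with slide as a block), and of 18 PRC1 genes only Cbx2 did (-1.47). Of the RUNX family, Runx2 differed by -1.11, and Runx3 (0.16), Cbfb (-0.03), Cbfa2t2 (-0.27) and Cbfa2t3 (0.21) by less on the probe used. Other probes gave -1.21 for Runx3 and -1.38 for Cbfa2t3. Hox genes, which pattern the body axis and sustain blood progenitors, were higher in 3 of 15 and lower in 4, with 24 of the 39 listed not measured. Hoxa10 stood at -4.31 on Double_mutant and 0.88 on Ezh2_deleted, a 36.4-fold difference, and at -0.59 on WT, -2.20 on RUNX1_mutant, -6.75 on the Double_MDS and -6.36 on the Double_MDS_ML array, and -2.25 (CD45.1_in_RUNX1_mutant) and -1.33 (CD45.1_in_double_mutant) in wild-type competitors. Its neighbour Hoxa9 stood at -2.26 and -0.06, against -0.75 to -0.11 on the wild-type arrays. For both genes Double_mutant lay below and Ezh2_deleted above every wild-type array. On the moribund arrays Hoxa9 stood at -3.08 and -3.89, and Hoxa10 was not well above background. Hoxb3 and Hoxb5 (both 1.85) and Hoxb4 (1.11) were higher, with Hoxb3 and Hoxb4 both at 0.90 with slide as a block.

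Among TALE cofactors, partners of Hox proteins, Tgif2 (-3.47) and Tgif1 (-1.46), repressors of this family, were lower, and Meis1 differed by -0.28, and by -1.37 with slide as a block. Of 6 oncofetal genes, 3 were higher and 1 lower: the RNA-binding protein genes Igf2bp3 (2.42) and Lin28a (1.42), the transcription factor gene Arid3a (2.06), and the chromatin protein gene Hmga2 (-1.04). Igf2bp3 stood at -0.08 on Double_mutant and -2.50 on Ezh2_deleted and was not well above background on the 6 other arrays. Polycomb-silenced developmental regulators were higher in 1 of 9 (Sox1, 1.63, with probes of both signs) and lower in 2, both at their bound (Lhx2 and Eomes, the latter at 0.21 with slide as a block), 21 of 30 not being measured. Of 12 imprinted genes Dlk1 was higher (3.91) and Igf2r lower (-3.52).

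Genes that mark stem cells differed in both directions, 9 of 25 higher and 6 lower (median 0.21). Sult1a1, a sulfotransferase of dormant stem cells in the mouse, differed by 4.81, Clca3a1 by 3.30 and Slamf1, the CD150 gene, by 2.30. Ctsg, which differed by 3.61, was counted in this list but encodes a granule protease of neutrophils. The sialomucin gene Emcn (-2.76), Mmrn1 (-2.41) and Procr (-1.21), the protein C receptor gene, were lower. Of 23 stem cell transcription factors 4 were higher and 4 lower (median -0.06). Besides Gfi1, Fli1 (1.31), Mycn (1.28) and Lyl1 (1.12) were higher, and Tcf15 (-1.50), Hes1 (-1.12), and Hlf (-1.02) were lower, as was Prdm16, at least 3.13-fold. With slide as a block Fli1 differed by 0.88, Mycn by 0.21 and Hes1 by -0.35.

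Outside the lists, the highest differences measured on both arrays were those of Dmkn, a gene of epidermal differentiation (7.75, or 215-fold), C4b, a complement component (6.73), Cldn15, a tight junction protein (6.19), Nrp2 (6.07), Prom1, the CD133 gene (6.03), Tctex1d1 (5.98) and Mogat2 (5.98). The lowest were those of Gfra2, a neurotrophic factor receptor (-6.75), Fxyd6 (-6.73) and Hnf4a, a nuclear receptor of liver (-6.51). Dmkn was high on CD45.1_in_RUNX1_mutant as well (4.85, against 6.17 on Double_mutant and -0.69 on WT). C4b was high on arrays with RUNX1S291fs, at 5.70 on Double_mutant, 4.07 on RUNX1_mutant and 4.78 on Double_MDS_ML, but not on Double_MDS (0.47), with the wild-type arrays at -2.15 to 0.65. Among bounds, Tpsg1, a tryptase gene of mast cells, was at least 123-fold, Ambp at least 65.6-fold and Celsr3 at least 53.6-fold higher, and Scn4b at least 57.6-fold lower.

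RUNX1S291fs was also present without the Ezh2 deletion, on RUNX1_mutant, and that array was set against WT. This pair shares no array with the other and also crosses slides, in the opposite sense. Sex did not differ within it. Xist stood at 1.84 on RUNX1_mutant and 1.33 on WT, and Eif2s3y and Ddx3y were well above background on neither. Sex thus goes with the Double_mutant and Ezh2_deleted pair only. Of 13966 genes measured there, 1195 were higher by 2-fold or more (8.56%) and 810 lower (5.80%). Among 13457 genes measured in both pairs, 296 were higher in both, 20.6% of the 1440 higher on Double_mutant and 27.2% of the 1090 higher on RUNX1_mutant. A further 344 were lower in both, 25.1% of 1371 and 43.2% of 796. In 270 genes the difference was at least 2-fold lower with the Ezh2 deletion and at least 2-fold higher without it. These were 19.7% of the 1371 and 24.8% of the 1090. In 91 genes it was the reverse, 6.32% of the 1440 and 11.4% of the 796. Over the 12200 genes well above background on all 4 arrays the differences had a Pearson r of 0.13 and a Spearman rho of 0.04, a description across genes, which are not independent replicates.

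Among the 10 genes highest in both pairs were Mcpt4, Cma1, Cpa3 and Hdc of the mast cell list, and Tpsg1, Mcpt-ps1, Il1rl1, Sult1a1 and Cd200r4 outside it. Cpa3 differed by 4.65 with and 5.30 without the Ezh2 deletion, Il1rl1 by 5.44 and 3.92 and Hdc by 4.73 and 3.47. Lowest in both were Bdh2, Hnf4a, Il18r1, Hdgfl3, Ccr7, Dcaf12l1, Klhl30, Il7r, Igf2r and Zfp618. Il7r differed by -3.54 and -3.59, Ccr7 by -4.87 and -3.81 and Hnf4a by -6.51 and -4.77.

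By list, mast cell genes had medians of 3.27 with and 1.41 without the deletion, lymphoid-primed genes -1.92 and -1.36, late neutrophil genes 1.83 and 1.93, eosinophil genes 1.64 and 2.11 and megakaryocyte genes 1.56 and 1.00. B cell genes had -4.37 and -0.06 and primary granule genes 3.04 and 0.76. Immediate early genes had -1.50 and 2.23 and NF-kappaB genes -1.38 and 1.11, of opposite sign. No list difference between the pairs was tested.

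**Figure D4:**
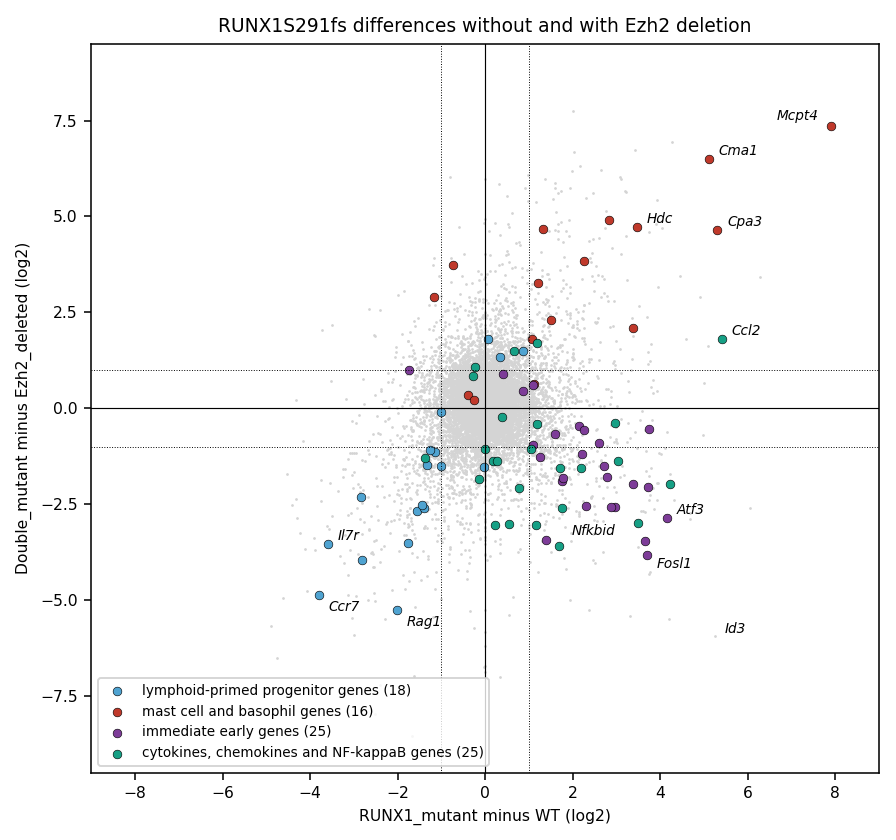
Difference RUNX1_mutant minus WT (x axis, log2) against Double_mutant minus Ezh2_deleted (y axis, log2) for each gene measured in both pairs, with 4 lists in colour and dotted lines at 2-fold. Mast cell genes such as Cpa3 (5.30 and 4.65) lie at the upper right, lymphoid-primed genes such as Il7r (-3.59 and -3.54) at the lower left, and immediate early genes such as Atf3 (4.16 and -2.85) at the lower right.

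In a limma fit over all 8 arrays, both arrays of the comparison were assumed to vary like the wild-type and the moribund arrays. The wild-type arrays differed in slide and in donor or competitor origin, and the moribund arrays in disease label, slide and sex. Xist stood at 2.76 on Double_MDS and Eif2s3y at 3.22 on Double_MDS_ML, each not well above background on the other. The fitted spread includes such differences. The fit gave a contrast for Double_mutant against Ezh2_deleted. It passed an adjusted p of 0.05 (Benjamini-Hochberg) in 0 of 13545 genes (0%), while 1141 had an unadjusted p under 0.05 and the lowest adjusted p was 0.154. The term for a difference between the pairs passed in 0 genes. The smallest p in limma went to Prkcz, an atypical protein kinase C, with a fitted effect of -5.88, SE 0.53, Tmprss4, a membrane serine protease, -5.72, SE 0.53, Galnt14, a glycosyltransferase, -5.73, SE 0.55, Polm, a DNA polymerase of end joining, 4.36, SE 0.44, and Ppp1r16b, a phosphatase regulator, -4.73, SE 0.51, each with adjusted p = 0.154. The 4 negative effects are no bounds, as those genes were not well above background on Double_mutant. Other probes of Galnt14 disagreed, with differences up to 0.02. Polm was measured on all 8 arrays, at 1.77 on Double_mutant and -2.59 on Ezh2_deleted, against 0.98 on RUNX1_mutant, 2.34 and 2.20 on the moribund arrays and -1.40 to -1.19 on the wild-type arrays. Its level was above 0 on every array with RUNX1S291fs and below 0 on every array without it.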

How the data were processed

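RNA of sorted LSK cells was measured on 8 one-colour mouse arrays, 1 per group. The scanner files hold intensity values that the authors deposited, background-corrected within each array by Agilent Feature Extraction per the file headers. The deposited series table holds a signal equal to the scanner's processed intensity divided by 1 factor per array, so it gave the same results.

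Levels are log2 of the processed intensity minus the array's 75th percentile over non-control probes, with repeat spots of a probe averaged. Of 55636 probes, 27202 carried a gene name and 28434 did not, and 45 further probes were left out as outliers. A gene counted as measured if 1 of both arrays, or both, showed it well above background. A difference of at least 2-fold was counted, without a test, since each group has 1 array. A contrast over all 8 arrays was fitted with limma 3.58.1 in R 4.3.3 with Benjamini-Hochberg adjustment, on genes that 3 or more arrays showed well above background, and was tested on simulated data. Other steps used Python 3.11.15, numpy 2.4.6, pandas 2.3.3 and scipy 1.17.1.

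Alternatives were normexp (offset 50, on the median spot and background intensity, since mean intensity was not used here), quantile and median scaling, a stricter filter, measured values in place of bounds, the mean of all probes of a gene, slide as a block and leaving out single arrays.

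The comparison and the 37 gene lists were chosen with earlier results of these data known. Of 652 listed genes, 639 had a probe and 559 were measured. Genes were named if among the 10 highest or lowest differences, the 5 largest bounds, the 5 members of a list farthest from 0, the 10 genes highest, lowest or opposite in both RUNX1S291fs pairs, the targeted and sort genes, or the 5 smallest p in limma. Further members were named after their values were seen. Some genes that this rule names are not reported here. Probe names are those of the array design and can be old. The number of arrays limits the precision.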

Additional observations from a re-analysis of the deposited data

Results flagged for a closer look

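Some genes differed in opposite directions with and without the Ezh2 deletion, and the difference between the pairs was not tested gene by gene beyond the limma term, which passed in 0 genes. The median of immediate early genes was -1.50 in Double_mutant minus Ezh2_deleted and 2.23 in RUNX1_mutant minus WT, and that of cytokine, chemokine and NF-kappaB genes was -1.38 and 1.11. Both pairs cross slides in opposite senses, and sex differs within the Double_mutant and Ezh2_deleted pair only. The parts of slide and sex were not tested.

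The genes farthest apart in this way were all lower on Double_mutant and higher on RUNX1_mutant. Id3 differed by -5.95 and 5.26, Cd83 by -5.50 and 4.19, Tnfrsf12a by -4.27 and 3.77 and Nfkbid, an NF-kappaB inhibitor, by -2.99 and 3.49. Maff, a small basic leucine zipper factor, differed by -3.45 and 3.66. Of the genes at their bound on Double_mutant, Rgs16, a regulator of G protein signalling, had a bound of -5.43 and a difference of 3.32, Foxo6 of -4.32 and 3.75 and Fosl1, a subunit of AP-1, of -3.82 and 3.70. Dusp8, a MAP kinase phosphatase, had a bound of -3.62 and a difference of 3.48 and Egr4, an immediate early zinc finger factor, of -3.38 and 3.67. With slide as a block all 10 were smaller: Id3 -3.45, Rgs16 -3.28, Tnfrsf12a -2.51, Cd83 -2.25, Foxo6 -2.16, Fosl1 -1.96, Dusp8 -1.85, Maff -1.79, Egr4 -1.42 and Nfkbid -1.34. WT enters both the choice of these genes and the value with slide as a block. A low WT level enlarges RUNX1_mutant minus WT and brings a negative block value nearer to no difference. The choice of genes thus favoured smaller values. With CD45.1_in_double_mutant as the only wild-type array of slide 2, Nfkbid (-0.85), Dusp8 (-0.84), Foxo6 (-0.61) and Egr4 (-0.48) were under 2-fold.

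Probes with no gene name, which the comparison did not use, also gave signal. Of 12367 such probes measured on the pair, 862 were higher by 2-fold or more (6.97%) and 1440 lower (11.6%). On Double_mutant 439 were well above background that were so on none of the 3 wild-type arrays, and on Ezh2_deleted 340, with 44 on both.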

How the results depend on the processing

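Medians of the 37 lists stayed within 1.5-fold in 306 of 332 recomputations, the named genes in 1406 of 1689 and the counts in 44 of 53. Some of these recomputations could not differ. The deposited series table is the same signal rescaled per array, and the stricter filter leaves the value of each kept gene unchanged. Of the 216 named genes, normexp shifted 95, and slide as a block shifted 133 and turned the sign of 5. Changes of sign are given only for results with a main difference of at least 2-fold. Smaller ones could change sign without being counted, as the median of erythroid genes did (0.17, and -0.03 with CD45.1_in_double_mutant as the only wild-type array of slide 2). With slide as a block the genes at least 2-fold higher came to 2778, and these medians were different: lymphoid-primed -2.64, IL-1 receptor cluster -2.39, interferon-stimulated -1.62, Y-linked genes and Xist -3.36, dendritic cell -0.29, immediate early -0.27, megakaryocyte 0.52, heat shock 1.00, monocyte 1.56, unfolded protein response 1.79, late neutrophil 3.04, mast cell 3.89 and primary granule 3.97. Cdkn2a (0.16), Hba-a1 (0.20), Eomes (0.21), Hspb1 (2.25) and Hspa1a (3.27) changed sign there. With CD45.1_in_double_mutant as the only wild-type array of slide 2, eosinophil (-0.12) and immediate early genes (0.11) changed sign. B cell (-2.42), dendritic cell (-0.48), CDK inhibitor (-0.15) and heat shock genes (0.87) shifted there. The other 31 list medians stayed within 1.5-fold of the main value, among them lymphoid-primed (-1.79), late neutrophil (1.52), monocyte (1.05) and megakaryocyte genes (1.25). With normexp 822 genes were lower, 169 higher in both pairs, 154 lower in both, 153 lower with and higher without the deletion and 34 the reverse, and the medians of B cell (-3.67), T and NK cell (-0.80), mast cell (2.22) and Y-linked genes and Xist (-2.36) shifted. With genes well above background on every array compared, 223 were lower in both, and the medians were -5.92 for B cell genes and 0.70 for Polycomb-silenced regulators. With measured values in place of bounds 144 genes were higher with and lower without the deletion, and the median of Y-linked genes and Xist was -6.21. The causes were not tested. Median scaling changed the share of higher genes among those apart from 49.9% to 43.4%, and normexp to 56.5%. In limma, normexp gave 15 genes (10 higher, 5 lower, lowest adjusted p 0.0476), and every other alternative run, single arrays left out included, gave 0. No paired analysis was possible because each group has 1 array.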
